A study of Mus musculus with 46 samples.

Results

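Topologically associating domains (TADs) are stretches of the genome whose parts contact each other more often than they contact the flanking sequence. A TAD boundary is the point where one such stretch ends and the next begins. This account describes the boundaries that were listed in the livers of mice on one diet and had no counterpart on the other. A boundary was every start or end of a domain in the deposited list of a diet, and it was counted as diet-only when it lay over 50 kb from every boundary of the other list. By this rule, 455 of 5933 boundaries (7.67%) were found only on the lipid-rich diet (LD) and 317 of 5797 (5.47%) only on the carbohydrate-rich diet (CD), so that 772 of 7901 different positions were diet-only. The members were selected on the Hi-C maps themselves. Their number, position and separation score are therefore given as a description, without a test.

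The samples were livers of male C57BL/6 mice, bought at 5 weeks of age and fed for 20 weeks either LD, with 60% of energy from lipid, 20% from carbohydrate and 20% from protein, or CD, with 10% from lipid, 70% from carbohydrate and 20% from protein. The labels name no transgene or deletion in any group. Hi-C and promoter capture Hi-C (PCHi-C) were made from 2 livers per diet and deposited as 1 pooled list per diet, so neither has a replicate error. RNA-seq covered 5 livers per diet, ChIP-seq for acetylated lysine 27 of histone H3 (H3K27ac, a mark of active promoters and enhancers) 3 per diet, and ChIP-seq for the liver transcription factors Hnf4a and Cebpa 2 per diet. By the sequencing metrics published with the study, both LD Hi-C libraries had more reads than either CD library, and the authors filtered the matrices of the diets at different limits. These differences cannot be told apart from diet in the number of diet-only boundaries.

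In mammals, many boundaries are held by the zinc-finger protein CTCF, which stops the ring-shaped cohesin complex as it extrudes a loop of chromatin. CTCF recognises a directional sequence motif, and boundaries also tend to lie near active promoters and housekeeping genes. Domains limit which enhancers a promoter meets, and many of their boundaries are known to be shared between cell types.

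A search for the 14-base CTCF core consensus, on both strands of the mouse genome build NCBIM37 (mm9), found a match within 10 kb of 44 of 455 LD-only boundaries (9.67%, 95% Wilson interval 7.28 to 12.7) and 32 of 317 CD-only boundaries (10.1%, 7.24 to 13.9). Boundaries at identical positions in both lists held a match in 682 of 3829 cases (17.8%, 16.6 to 19.1). Boundaries displaced by up to 50 kb held one in 12.5% (LD) and 12.8% (CD) of cases, and 4.79% of all 20-kb windows of the genome did. Diet-only boundaries thus lay between the genome and the boundaries common to both diets. The sequences shown here are the matches nearest to the diet-only boundaries of lowest separation score that had one, because these are the strongest diet-only boundaries with a recognisable CTCF core. The core is in capitals, with 20 bases of reference on either side, 5′ to 3′ on the strand named. A match is a description of the letters and not a measured binding site.
LD-only boundary at 103700000, chr6:103696281-103696334, plus strand: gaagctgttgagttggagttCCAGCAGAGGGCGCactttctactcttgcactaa
LD-only boundary at 80620000, chr14:80616238-80616291, minus strand: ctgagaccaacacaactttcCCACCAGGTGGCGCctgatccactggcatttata
LD-only boundary at 51740000, chr13:51734518-51734571, minus strand: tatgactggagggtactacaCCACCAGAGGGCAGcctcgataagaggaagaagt
CD-only boundary at 63605000, chr15:63603314-63603367, minus strand: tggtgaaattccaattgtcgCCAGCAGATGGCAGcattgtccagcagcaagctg
CD-only boundary at 28005000, chr5:28007195-28007248, plus strand: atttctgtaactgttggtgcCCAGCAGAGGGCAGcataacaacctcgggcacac
CD-only boundary at 46970000, chr6:46963722-46963775, minus strand: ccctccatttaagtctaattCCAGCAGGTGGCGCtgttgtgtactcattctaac

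The boundaries on chromosome 6 at 103700000 and on chromosome 14 at 80620000 had scores of -0.666 and -0.638. No annotated transcription start site (TSS) lay within 100 kb of either, and both lay inside CD domains of 4780 and 4645 kb. The boundary on chromosome 13 at 51740000 (score -0.603) was of another kind. It lay 0.601 kb from the TSS of Cks2, which encodes a subunit of the cell-cycle kinase complex, and its H3K27ac coverage of 9.7, 9.6 and 9.8% in the LD livers exceeded the 7.4, 7.8 and 6.5% in the CD livers.

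The separation score deposited with each domain measures how strongly contacts drop at a position, with lower values for stronger separation. In these lists it belongs to the start of the domain. Domains with the same start but ends over 50 kb apart had nearly the same score on both diets (Pearson r = 0.988 across 442 domains), whereas those with the same end and different starts did not (r = 0.161 across 401). The score of the domain starting at a boundary was therefore taken as its own, a choice made after the data were seen. The median was -0.113 at LD-only boundaries (quartiles -0.345 and 0.145, n = 451) against -0.285 at identical boundaries on LD. It was -0.0520 at CD-only boundaries (quartiles -0.285 and 0.236, n = 315) against -0.265 at identical boundaries on CD. By this reading diet-only boundaries were the weaker ones on both diets, although the ranges overlapped widely. The order rests on the reading. With the lower score of the domains that meet at a boundary, which was the reading first planned, the medians were close: -0.430 at LD-only against -0.443 at identical boundaries on LD, and -0.414 against -0.413 on CD. With the score of the domain that ends there, the order turned, to -0.360 against -0.260 on LD and -0.338 against -0.245 on CD. Boundaries displaced by up to 50 kb had medians of -0.300 on LD and -0.283 on CD, near those of identical boundaries. Of LD-only boundaries, 62.7% had a score below 0, and of CD-only boundaries 53.7%, compared with 76.6% and 75.8% of the identical boundaries in the respective lists.

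**Figure D1:**
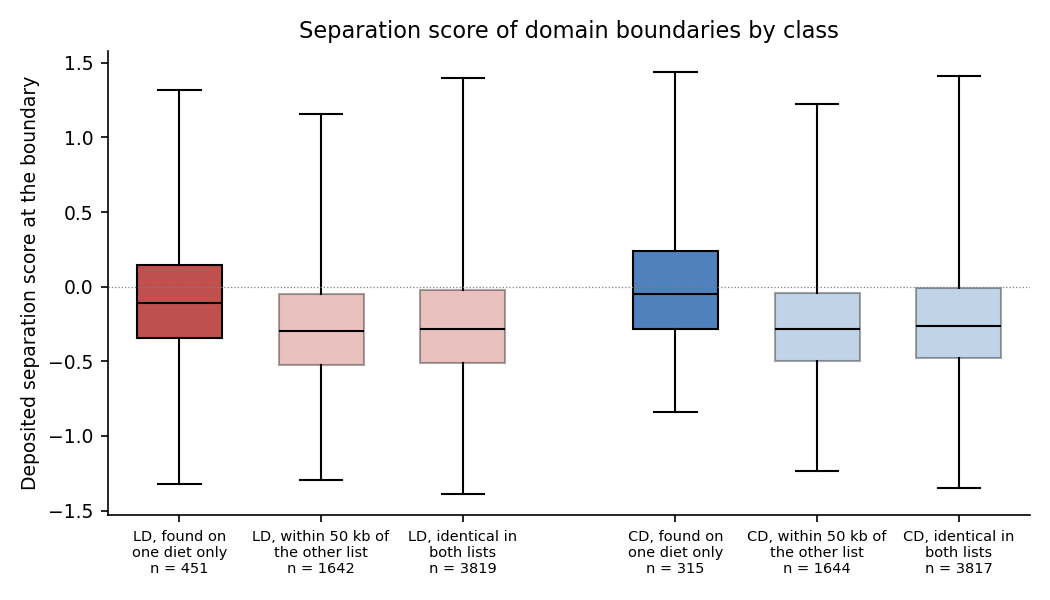
Deposited separation score (vertical axis, no unit, lower is stronger) of the domain that starts at a boundary, by diet and class. The line in each box is the median, the box spans the quartiles and the whiskers the full range. The diet-only medians of -0.113 (LD) and -0.0520 (CD) lie above those of identical boundaries, -0.285 and -0.265.

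When the boundaries of each diet were ranked by the score of the starting domain and cut into 4 sets of equal size, the share that was diet-only rose from set to set. On LD it was 3.52% in the set of lowest scores, 5.75% and 9.34% in the middle sets and 11.9% in the set of highest scores. On CD the shares were 2.49, 3.60, 5.54 and 10.2%. Strong diet-only boundaries existed nonetheless, with 52 LD-only and 36 CD-only boundaries in the set of lowest scores of their lists.

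**Figure D2:**
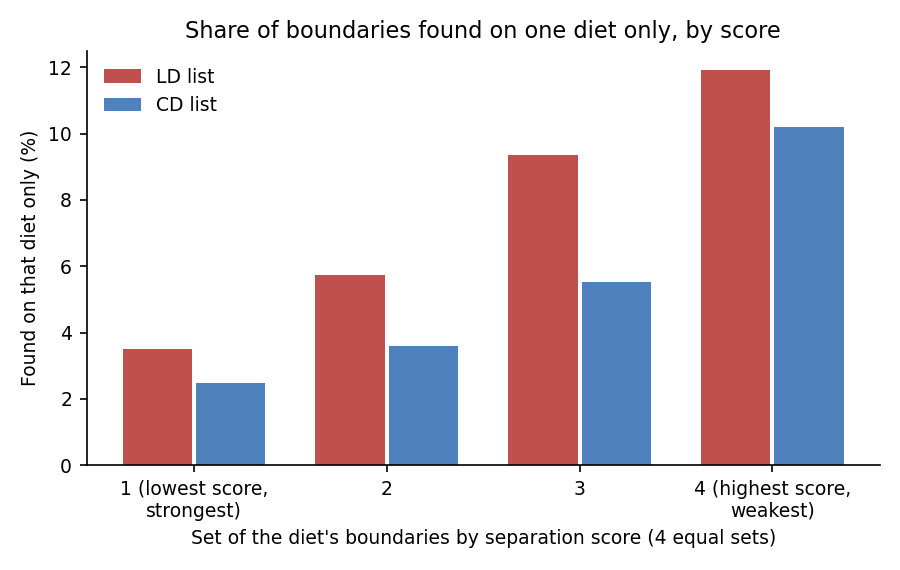
Percentage of boundaries found on that diet only (vertical axis) in each of 4 equal sets of the diet's boundaries, ordered by separation score (horizontal axis), 1478 boundaries per set on LD and 1444 on CD. The share rises from 3.52 to 11.9% on LD and from 2.49 to 10.2% on CD.

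Nearly all diet-only boundaries lay inside a domain of the other list, as the rule and the adjoining domains make them do. Of the LD-only boundaries, 450 lay inside a CD domain, and for 369 of these (82.0%) both edges of that domain had an LD boundary within 50 kb. Of the CD-only boundaries, 314 lay inside an LD domain, with both edges matched for 238 (75.8%). The rule admits only domains of over 100 kb and longer domains offer more room, so the median sizes of the divided domains, 713 kb on CD and 543 kb on LD, are given as a description. In most cases there was 1 split per domain: 342 of 392 divided CD domains and 284 of 299 divided LD domains held a single diet-only boundary, and 2 CD domains held 4. The 5 LD-only and 3 CD-only boundaries outside a domain of the other list lay where that list ended or began.

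The distance to the nearest boundary of the other list ran from 55 to 3925 kb on LD (median 225 kb) and from 55 to 1875 kb on CD (median 170 kb). Just inside the threshold, 10 LD-only boundaries at 60 kb had a median score of -0.0162 and 11 CD-only boundaries one of -0.275. Just outside it, at 50 kb, 17 LD boundaries had a median of -0.101 and 20 CD boundaries one of 0.0354. A minority of members came as displaced pairs: 25 LD-only boundaries had a CD-only boundary within 100 kb, as did 25 CD-only boundaries on the opposite list.

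Of the positions farthest from the other list, 3 of 5 LD-only and 3 of 5 CD-only ones had no TSS within 100 kb, and no gene near any of them passed the filter on low counts. The LD-only boundary at 82510000 on chromosome 5 lay 3925 kb from any CD boundary, inside a CD domain of 8525 kb, with its nearest TSS 718 kb away. No H3K27ac peak lay within 100 kb in any liver, and no promoter interaction crossed it. The LD-only boundaries on chromosome 2 at 97280000, inside Lrrc4c, and on chromosome 15 at 48600000, inside Csmd3, fell in long genes best known from the nervous system. The remaining LD-only positions among the 5 farthest were at 96360000 on chromosome 14 and at 113170000 on the X chromosome, 3080 and 2810 kb from any CD boundary. On CD, the farthest was at 88170000 on chromosome 2, 1875 kb from any LD boundary, in a cluster of olfactory receptor genes where 14 interactions on LD and 20 on CD crossed it. The CD-only position at 103650000 on chromosome 10 had 26 TSS within 100 kb, mostly of predicted genes. Those at 47385000 on chromosome 10, at 41980000 on chromosome 2 within Lrp1b, and at 79980000 on the X chromosome lay 1685, 1500 and 1190 kb from any LD boundary, with no crossing interaction on either diet.

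The lowest score of an LD-only boundary was -1.32, at 85250000 on chromosome 1 within C130026I21Rik, inside a CD domain of 2770 kb. The lowest of a CD-only boundary was -0.843, at 39220000 on chromosome 7 inside an LD domain of 7485 kb. Neither had a crossing promoter interaction on either diet. The Gsdmc cluster on chromosome 15, which encodes gasdermins of the pore-forming family, carried a displaced pair: the LD-only boundary at 63680000 (score -0.834) and the CD-only boundary at 63605000 (score -0.782) were 75 kb apart. Neither diet had H3K27ac peaks within 100 kb of them, and none of the genes there passed the filter on low counts. The other LD-only boundaries among the 5 of lowest score were at 81780000 and 73320000 on chromosome 6 (-0.837 and -0.799) and at 57850000 on chromosome 2 (-0.819), 0.566 kb from the TSS of Galnt5, and no interaction crossed any of them. The other CD-only ones were at 75510000 on chromosome 9 (-0.792) within Scg3, at 97900000 on chromosome 13 (-0.710) within Nsa2 and at 132400000 on chromosome 1 (-0.679), with 1 crossing interaction among them, on CD at the boundary on chromosome 13.

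Diet-only boundaries had fewer genes around them than identical boundaries. The mean number of TSS within 100 kb was 2.51 at LD-only, 2.94 at CD-only and 3.15 at identical boundaries. No TSS lay within 100 kb of 130 LD-only boundaries (28.6%) and 80 CD-only boundaries (25.2%), against 14.1% of identical ones. The displaced boundaries had means of 2.81 (LD) and 2.80 (CD), and 17.7 and 17.5% of them had no TSS within 100 kb. A TSS within 10 kb was found at 24.0% of LD-only, 27.1% of CD-only and 32.8% of identical boundaries, and at 25.8% (LD) and 24.3% (CD) of displaced ones. By the mean and by this share, CD-only boundaries were thus not the poorer in genes of these classes. The median GC content of the 20 kb around the boundary was 41.7% at LD-only, 42.2% at CD-only and 44.0% at identical boundaries.

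In the RNA-seq libraries, 31707963 to 39012699 read counts per liver fell on genes, and 13494 genes were tested by edgeR's quasi-likelihood test. Over all of them, 24.9% were called at an adjusted p under 0.05 and a fold change above 1.2, 13.8% as higher on LD and 11.1% as higher on CD. Of 1134 gene entries with a TSS within 100 kb of an LD-only boundary, 614 passed the filter on low counts, and 159 of these (25.9%) were called, 86 (14%) higher on LD and 73 (11.9%) higher on CD. Around CD-only boundaries, 528 of 923 entries were tested and 129 (24.4%) called, 66 (12.5%) higher on LD and 63 (11.9%) higher on CD. The shares of called genes near diet-only boundaries were thus close to those of all genes, in both directions. The median size of the change on the log2 scale was 0.194 near LD-only and 0.187 near CD-only boundaries, compared with 0.197 over all genes, and 53 tested genes lay near boundaries of both kinds. As these are whole livers, fewer cells of a type and less RNA per cell cannot be told apart.

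The largest changes near LD-only boundaries ran in both directions. The 12 ranked here were taken only from called genes whose livers did not overlap between diets. That these genes do not overlap is therefore no result. Hsd3b5, a steroid dehydrogenase gene expressed more in male liver, had 0.11, 0.24, 1.61, 18.4 and 29.2 CPM (read counts scaled to library size) in the LD livers and 360 to 442 in the CD livers (median 409). The diets did not overlap, and the LD livers spread widely among themselves. Its log2 fold change (LD over CD) was -5.34 (SE 1.21, adjusted p = 0.0126), and it came to -6.30 without LD replicate 2, -6.71 with the replicate block and -6.49 with limma on log2(TPM + 1). The LD-only boundary 69.5 kb from its TSS, at 98380000 on chromosome 3, had Hsd3b4 and Hsd3b5 within 100 kb, and H3K27ac covered 4.2, 2.8 and 2.1% of the surrounding 200 kb in LD livers and 8.1, 11 and 9.4% in CD livers. Agpat9, an acyltransferase of triglyceride synthesis, ran the other way, with 14.9, 16.3, 22.0, 25.8 and 23.8 CPM on LD and 2.10, 2.79, 4.44, 3.24 and 2.18 on CD. Every LD liver exceeded every CD liver, at a log2 fold change of 2.79 (SE 0.222, adjusted p = 1.43e-05). The LD-only boundary 45.2 kb from its TSS, at 101230000 on chromosome 5, had H3K27ac coverage of 12.3, 13.5 and 13.4% in LD livers and 7.7, 7.7 and 8.1% in CD livers, and 3 crossing interactions on each diet.

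Other genes among the 12 largest changes near LD-only boundaries were named by the same rule. Ubd, an inflammation-induced ubiquitin-like modifier, rose from 0.517 ± 0.206 to 7.49 ± 2.93 CPM (SD, n = 5 mice per diet; edgeR log2 fold change 3.84, adjusted p = 2.09e-05). The immediate early transcription factor gene Egr2, the recombination gene Rad54b and the kinetochore gene Knstrn rose as well, by 2.61, 2.15 and 1.73 on the log2 scale. Gal3st1, a galactosylceramide sulfotransferase gene, rose by 1.86 and lay within 100 kb of both an LD-only and a CD-only boundary. Fewer of the 12 largest were lower on LD: beside Hsd3b5, these were Atp4a, a proton pump subunit gene (-1.79), and Slc22a28, an organic anion transporter gene (-1.75).

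The largest group of called genes at one LD-only boundary was a histone cluster. The boundary at 21900000 on chromosome 13 (score -0.121), within Hist1h2bq and Hist1h2br, had 24 TSS within 100 kb. All 11 tested genes there rose on LD, namely genes for linker histone H1 and core histones H2A, H2B, H3 and H4, with log2 fold changes from 0.86 for Hist1h4n to 2.14 for Hist1h1b. Hist1h1b had 4.11, 6.85, 4.66, 5.43 and 5.42 CPM on LD and 1.59, 1.2, 1.09, 1.33 and 0.79 on CD, so that the diets did not overlap. Genes of the same histone family are close in sequence, and reads may have been split among them. H3K27ac covered 9.9, 11.9 and 11.5% of the window on LD and 6.2, 6.0 and 5.2% on CD. Crossing promoter interactions numbered 93 on LD and 109 on CD, of which 22 and 38 were on that diet's list alone.

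At the LD-only boundary with the next most called genes, called members moved in both directions. It lay at 75210000 on chromosome 11 (score 0.353), within Smyd4, and 7 of 8 tested genes were called, 2 higher and 5 lower on LD. Rpa1, which encodes a subunit of the protein that coats single-stranded DNA, and Tlcd2 rose by 0.32 and 0.58 on the log2 scale. Serpinf2, which encodes alpha-2-antiplasmin, fell by 0.40, the splicing factor gene Prpf8 by 0.40, Mir22hg by 0.58, Wdr81 by 0.29 and Serpinf1 by 0.26. H3K27ac covered 39.7, 38.1 and 32.8% of the window in LD livers and 39.6, 39.3 and 41.1% in CD livers, which overlapped, and 25 interactions crossed it on each diet.

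Of the called genes, Igf1 lay nearest to an LD-only boundary. It encodes the growth factor that liver secretes in response to growth hormone, and its TSS lay 1.01 kb from the boundary at 87320000 on chromosome 10. Igf1 had 379, 359, 283, 264 and 265 CPM on LD and 442, 490, 546, 513 and 450 on CD, a log2 fold change of -0.66 (SE 0.112, adjusted p = 0.000943). The boundary itself was weak (score 0.645), and 97 interactions on LD and 96 on CD crossed it. H3K27ac covered 40.5, 38.8 and 37.6% of the window on LD and 44.7, 40.4 and 43.4% on CD, so that the livers of the diets overlapped. Tcf7l2, a transcription factor gene of the Wnt pathway with its TSS 3.70 kb from a boundary, fell by 0.61 on the log2 scale, and Prrc2a by 0.42. Gatb, Plekho2, Tox, Nans and Srpx2 rose, by 0.34, 0.46, 0.53, 0.28 and 0.41. Not all of these calls were stable, though no change reversed its direction. That of Srpx2 was lost in 8 of the alternatives tried. These were the replicate block and 7 that left out a liver (LD replicate 1, 2 or 5, or CD replicate 1, 2, 4 or 5). That of Tox was lost without LD replicate 1 or CD replicate 2, 4 or 5, that of Nans without LD replicate 1 or CD replicate 3 or 4, and that of Prrc2a with limma on log2(TPM + 1).

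Near CD-only boundaries, too, the largest changes ran in both directions, among genes again taken only where the livers did not overlap. Cyp2c69 and Cyp2c40, members of a P450 cluster on chromosome 19 that oxidises fatty acids, steroids and drugs, had log2 fold changes of -5.15 (SE 0.391) and -4.00 (SE 0.496). Cyp2c40 had 0.65, 0.08, 0.31, 0.61 and 0.62 CPM on LD and 10.7, 6.24, 11.2, 4.89 and 3 on CD, so that its diets were apart. Other genes of the cluster differed in direction: Cyp2c68 near the same boundary fell by 0.66 on the log2 scale, whereas Cyp2c38 and Cyp2c39, near the CD-only boundary at 39530000, rose by 1.03 and 1.29. The CD-only boundary at 39870000, within Cyp2c40, was weak (score 0.682) and was crossed by 2 interactions on LD and 1 on CD. Plin4, which coats lipid droplets, had 26.2, 35.7, 45.4, 58.6 and 74.6 CPM on LD and 2.65, 2.25, 6.56, 4.51 and 4.69 on CD, a log2 fold change of 3.54 (SE 0.377, adjusted p = 0.000240). At the CD-only boundary 29.2 kb away, on chromosome 17 at 56220000, H3K27ac coverage was higher in every LD liver (42.2, 41.2 and 42.7%) than in any CD liver (37.3, 38 and 39%), and 14 interactions on LD and 15 on CD crossed it.

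The serpin cluster on chromosome 12, whose genes encode secreted protease inhibitors including antitrypsins, held diet-only boundaries of both kinds. At the CD-only boundary at 105320000 (score 0.161), within Serpina4-ps1, all 5 tested genes were lower on LD. Serpina9 had a log2 fold change of -3.86, Serpina4-ps1 of -3.35, Serpina3c of -2.06, Serpina11 of -0.57 and Serpina12 of -0.54. The diets did not overlap in CPM for any of these genes, and how reads that match several paralogues were shared among them was not tested. Without CD replicate 4, Serpina4-ps1 came to -2.68 and Serpina3c to -1.46, and without LD replicate 2 Serpina4-ps1 came to -4.07, all still called. With the replicate block the call of Serpina4-ps1 was lost, without a reversal of its direction. H3K27ac covered 19.9, 20.1 and 17.4% of the window on LD and 28.9, 25.6 and 26.4% on CD. Even so, 134 interactions crossed the boundary on LD and 117 on CD, 28 and 11 of them on that diet's list alone. The LD-only boundary at 105135000 (score -0.255), within Serpina1c, had 4 tested genes within 100 kb, of which 3 fell on LD. Serpina1c had 1009, 1423, 1531, 2088 and 2361 CPM in LD livers and 2888 to 3185 in CD livers. H3K27ac covered 19.9, 16 and 15% there on LD and 22.7, 22.8 and 22.2% on CD. Acetylation and the RNA of the called genes were lower on LD at both boundaries, whose windows overlap and share Serpina11 as a called gene. Further along, Ifi27l2b, an interferon-induced gene 69.6 kb from the CD-only boundary at 104765000, rose from 5.67 ± 0.605 to 44.7 ± 20.1 CPM (edgeR log2 fold change 2.98, n = 5 per diet).

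Slc22a28 and Slc22a29, neighbouring organic anion transporter genes on chromosome 19, moved in opposite directions around a displaced pair of boundaries. Slc22a28 had 11.9, 7.12, 5.46, 1.73 and 2.15 CPM on LD and 22.8, 21.9, 19.0, 16.4 and 16.3 on CD. Slc22a29 had 8.39, 7.07, 15.9, 15.9 and 16.6 CPM on LD and 1.08, 1.15, 1.09, 0.89 and 1.49 on CD. The LD-only boundary at 8180000 (score 0.222), within Slc22a28, and the CD-only boundary at 8250000 (score 0.396), within Slc22a29, were 70 kb apart, and each was crossed by 4 interactions on LD and 6 on CD. The call of Slc22a28 was lost without LD replicate 3 (log2 fold change -1.74 against -1.75). These genes are paralogues, and the sharing of reads between them was not tested. Other large changes near CD-only boundaries were in Ugt2b38, a glucuronidation enzyme gene (log2 fold change -2.98), and in the mitotic gene Dlgap5 (2.30).

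Around the CD-only boundary at 73140000 on chromosome 8, 6 of 10 tested genes were called, and all 6 rose on LD. Among them, the stress-induced hormone gene Gdf15 rose by 2.01 on the log2 scale, with CPM of 2.9, 11, 20.2, 14.5 and 14.3 on LD and 4.27, 3.11, 1.48, 2.29 and 4.45 on CD, so that 1 LD liver lay within the CD range. Isyna1, Lrrc25, Ssbp4, Jund and Pgpep1 rose by 0.74, 0.77, 0.56, 0.45 and 0.35. The called genes with a TSS nearest to a CD-only boundary included Serpina4-ps1 and Lrrc25, given above. Of the others, Ces2e, a carboxylesterase gene 0.160 kb from the boundary at 107450000 on chromosome 8, rose by 0.39, Cstb by 0.57, Pisd by 0.30 and Cdh4 by 0.69, whereas Zzef1 fell by 0.35 and Phip by 0.41. Some of these calls, but not the direction of the changes, depended on single livers. That of Lrrc25 was lost without CD replicate 3 or 4, and that of Phip without LD replicate 3 or CD replicate 2. That of Cdh4 was lost without LD replicate 5 and that of Pisd without LD replicate 3. With limma on log2(TPM + 1), the calls of Phip, Cdh4 and Zzef1 were lost. The displaced pair on chromosome 19 at 4050000 (LD-only) and 4105000 (CD-only) had 5 of 13 and 5 of 16 tested genes called, 4 higher and 1 lower on LD at each. The windows overlap, and Gstp1, Gstp2, Pitpnm1 and Tmem134 are called genes of both. There, the glutathione transferase gene Gstp1 fell from 509 ± 35.3 to 307 ± 43.9 CPM (edgeR adjusted p = 0.000184, n = 5 per diet), whereas its neighbour Gstp2 rose by 0.79 on the log2 scale.

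**Figure D3:**
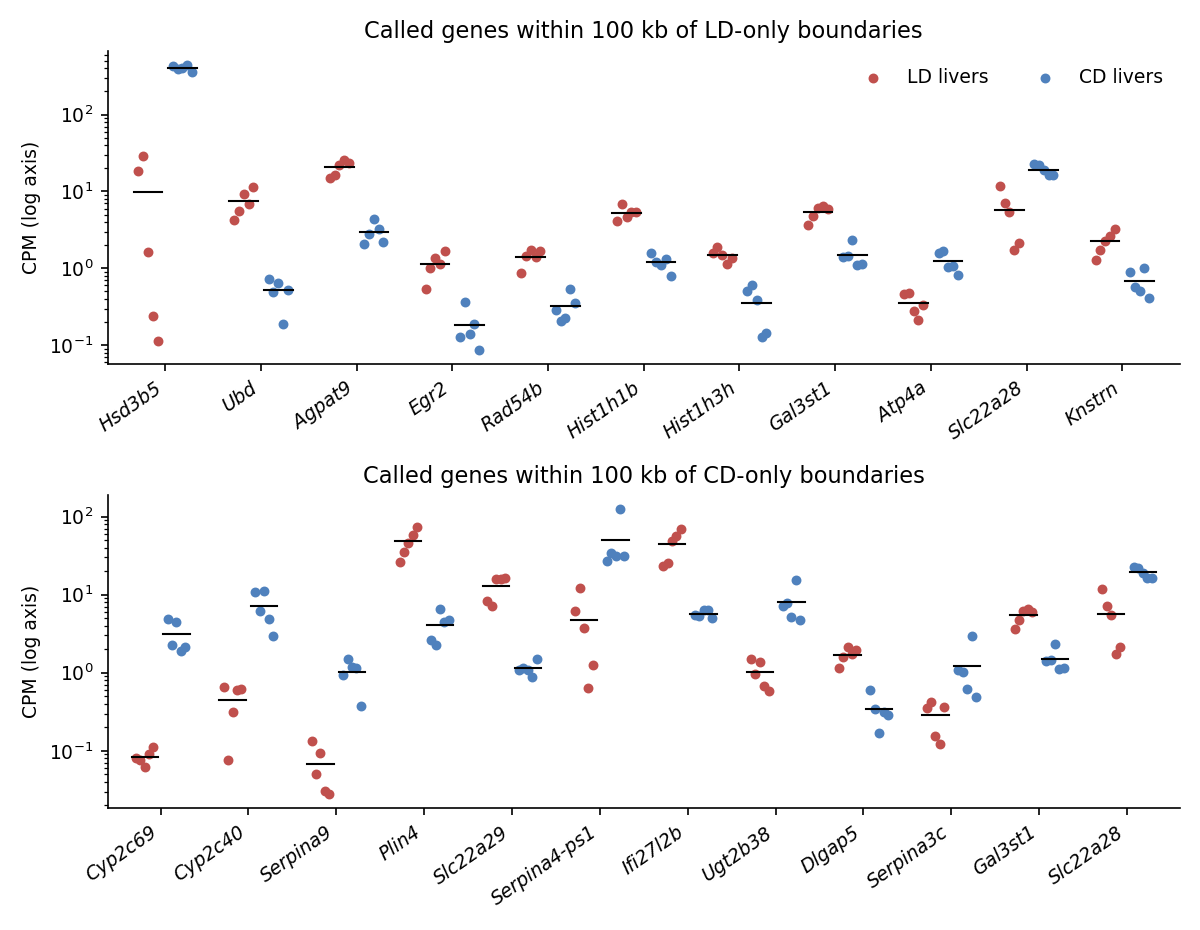
CPM (log axis) of called genes with the largest change, 11 within 100 kb of LD-only boundaries (top) and 12 of CD-only boundaries (bottom), 1 point per liver, 5 LD and 5 CD livers, with lines at the means. The genes were chosen for not overlapping between diets. Both panels hold genes higher on LD, such as Agpat9 and Plin4, and genes higher on CD, such as Hsd3b5 and Cyp2c69.

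Genes for CTCF, cohesin, condensin and related proteins were read from the same libraries. All 25 listed genes were tested, 3 rose on LD, 6 fell and 16 were not called, where 13.8% of all genes rose and 11.1% fell. Ctcf had 35.7 ± 1.93 CPM on LD and 36.7 ± 1.82 on CD (SD, n = 5), a log2 fold change of -0.04 (edgeR adjusted p = 0.653). The cohesin ring subunit gene Smc3 fell by 0.31 and the ring partner Stag2 by 0.43. The cohesin loader Nipbl fell by 0.47, the release factor Wapl by 0.28, its partner Pds5b by 0.41, and the promoter-binding factor Yy1 by 0.30. Rad21, Mau2, Pds5a and Ldb1 were lower on LD by 0.24, 0.20, 0.21 and 0.24. Their edgeR adjusted p was under 0.05, but they were not called because they fell short of the 1.2-fold limit. Genes of cohesin function in dividing cells rose, namely the cohesion establishment factors Cdca5 by 1.86 and Esco2 by 1.28, as did the condensin subunit Smc2 by 0.91. Cdca5 had 0.631 ± 0.190 CPM on LD and 0.176 ± 0.139 on CD (SD, n = 5).

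Markers of other liver cells were read in the same libraries. Of 36 such markers 10 were called (27.8%), near the 24.9% of all genes, 9 of them higher on LD (13.8% over all genes). Of 10 macrophage markers, 3 rose (Cd68, Itgax and Trem2) and none fell, with summed levels of 515 to 1354 CPM on LD and 402 to 806 on CD. Of 7 stellate cell markers, 3 rose, with sums of 698 to 1009 on LD and 591 to 723 on CD. Of 5 cholangiocyte markers 1 rose, with sums of 45.9 to 121 and 18.8 to 32.1, which did not overlap. Spp1, which other cells also express, made up most of this sum, at 66.5 CPM on LD and 16.8 on CD, and Krt19, Krt7, Sox9 and Epcam were not called. Of 6 endothelial markers 1 rose (sums of 398 to 557 and 440 to 547), and of 8 lymphocyte markers 1 rose and 1 fell (3.91 to 10.3 and 5.48 to 6.80). Of 8 hepatocyte markers, 3 fell, and their sums were 96840 to 119200 and 102900 to 121300. The part of cell composition in the changes at diet-only boundaries was not tested.

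H3K27ac was sparser around diet-only than around identical boundaries. Peaks covered 6.86, 7.08 and 6.53% of the 200 kb around LD-only boundaries in the LD livers and 6.37, 6.46 and 6.30% in the CD livers. Around CD-only boundaries the values were 7.90, 8.04 and 7.45% on LD and 7.20, 7.39 and 7.15% on CD, and around identical boundaries 10.9, 11.1 and 10.4% on LD and 9.94, 10.2 and 9.82% on CD. Displaced boundaries lay between, at 8.02 to 8.93% in LD livers and 7.53 to 8.21% in CD livers. LD livers had more coverage at every class, including boundaries that both diets shared, and more peaks in all, 53821 to 56987 against 48156 to 51608. Relative to the identical boundaries of the same liver, coverage at LD-only boundaries was 0.631 ± 0.0049 on LD and 0.639 ± 0.0031 on CD (SD, n = 3), a log2 ratio of -0.0202. At CD-only boundaries it was 0.721 ± 0.0064 and 0.727 ± 0.0020, a log2 ratio of -0.0117, with overlapping livers, which came to -0.00491 without LD replicate 3 and -0.0176 without LD replicate 1. The livers did not overlap at LD-only boundaries, but the highest LD value (0.6357) and the lowest CD value (0.6359) were almost the same, and with boundaries over 100 kb from the other list the log2 ratio was 0.00626.

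**Figure D4:**
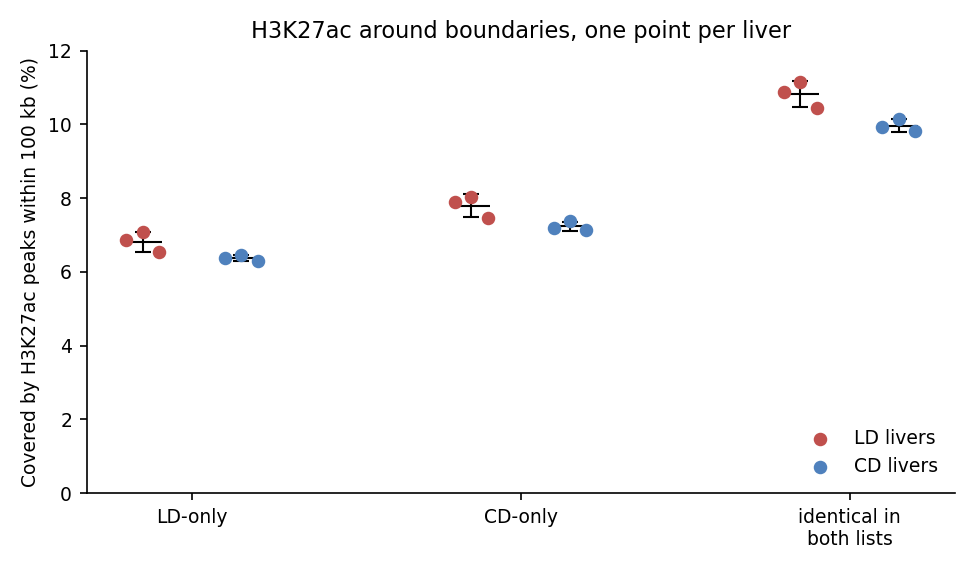
Mean percentage of the 200 kb around a boundary that is covered by H3K27ac peaks (vertical axis) at LD-only, CD-only and identical boundaries, 1 point per liver, 3 LD and 3 CD livers, with mean and SD. The diet-only classes lie between 6.30 and 8.04%, and the identical class between 9.82 and 11.1%.

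Single boundaries differed in either direction. Over all 7901 boundary positions, every LD liver exceeded every CD liver at 24% and every CD liver exceeded every LD liver at 5.19%. At LD-only boundaries this was so at 83 (18.2%) and 17 (3.74%) of 455, and at CD-only boundaries at 63 (19.9%) and 11 (3.47%) of 317. Both shares were below those of all boundaries. No peak lay within 100 kb of 116 of 455 LD-only and 72 of 317 CD-only boundaries in any liver, against 216 of 3829 identical ones. Such windows can count in neither direction but stay in the totals. Loci with a peak in all 3 livers of a diet and none of the other made up 3.33% (LD) and 1.02% (CD) of the loci near LD-only boundaries, against 3.13% and 0.757% in the whole genome. Near CD-only boundaries, loci of the LD livers made up 2.83%, and 18 of 1623 loci were found in the CD livers only.

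The following boundaries with large differences in H3K27ac were chosen after their values were seen. At the LD-only boundary at 107560000 on chromosome 7, the LD livers had 15.8, 20.8 and 17.5% coverage and the CD livers 11.7, 11.7 and 10.2%, and Ucp2, a mitochondrial carrier gene, rose by 1.05 on the log2 scale. At the CD-only boundary at 59450000 on chromosome 9, the LD livers had 13.3, 13.1 and 14.4% coverage and the CD livers 8.2, 7.6 and 7.1%. Hexa, a lysosomal hexosaminidase gene, and Pkm, a glycolytic pyruvate kinase gene, rose there by 0.90 and 0.80.

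Peaks of the liver transcription factors were also fewer than at identical boundaries, and low shares were likewise found at displaced boundaries. A Hnf4a peak lay within 10 kb of 28.8 and 24.6% of LD-only boundaries in the LD livers and 20.7 and 28.1% in the CD livers, against 30 to 37.3% of identical boundaries over the 4 livers. For CD-only boundaries the shares were 25.2 and 26.2% on LD and 25.9 and 29.3% on CD. A Cebpa peak lay within 10 kb of 24.2 and 24.6% of LD-only boundaries in the LD livers and of 29.2 and 30.8% in the CD livers. For CD-only boundaries these shares were 24.9 and 22.7% in LD livers and 32.8 and 33.1% in CD livers. At displaced boundaries over the 4 livers, Hnf4a shares were 21 to 27% for the LD list and 18.3 to 25% for the CD list, and Cebpa shares 23.9 to 34.1% and 23.9 to 32.2%. At identical boundaries the Cebpa shares were likewise lower on LD (34.0 and 34.6%) than on CD (40.1 and 42.7%).

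Promoter contacts across the boundaries were counted to ask whether the diet that has a boundary has fewer of them. PCHi-C lists, made by capturing promoter fragments from the Hi-C libraries, held 151203 interactions on LD and 149798 on CD, with a CHiCAGO score of at least 5 and a span of up to 1 Mb. An interaction crossed a boundary when its fragments lay on opposite sides. LD-only boundaries were crossed by 5109 different interactions on LD and 5059 on CD, 3.38% of either list, a log2 ratio (LD over CD) of 0.00072 (95% interval -0.0554 to 0.0568 from counting error alone). CD-only boundaries were crossed by 4072 on LD (2.69% of the list) and 3784 on CD (2.53%), a log2 ratio of 0.0924 (0.0285 to 0.156). Identical boundaries had a log2 ratio of -0.00617 (-0.0269 to 0.0146). Each interval treats interactions as independent, although most were on both lists and up to 301 on CD crossed 1 diet-only boundary. It therefore cannot decide whether the diets differ. At CD-only boundaries slightly fewer interactions crossed on CD, the diet on which they were listed. With 1 pooled list per diet the spread between livers is unknown. Of the interactions crossing LD-only boundaries, 60.4% of those on LD and 61.0% of those on CD were on both lists, and for CD-only boundaries 55.1% and 59.3%, compared with 69.6% and 70.3% of the whole lists and 58.5% and 58.8% at identical boundaries.

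Most diet-only boundaries had too few crossings to compare. The median was 1 on each diet at LD-only boundaries, and 158 of them (34.7%), and 101 CD-only boundaries (31.9%), had none on either diet. At least 10 crossings over both lists were found at 151 LD-only and 127 CD-only boundaries. Over all 2871 boundary positions with at least 10, crossings were over 1.5 times fewer on LD at 15.6% and over 1.5 times fewer on CD at 15.1%. At LD-only boundaries they were fewer on LD at 17 (11.3%) and fewer on CD at 26 (17.2%). At CD-only boundaries they were fewer on LD at 22 (17.3%) and fewer on CD at 16 (12.6%). In each set, the diet that lacked the boundary was the one with more cases of fewer crossings, which for CD-only boundaries is the opposite of the summed ratio, and the shares stayed near those of all boundaries.

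**Figure D5:**
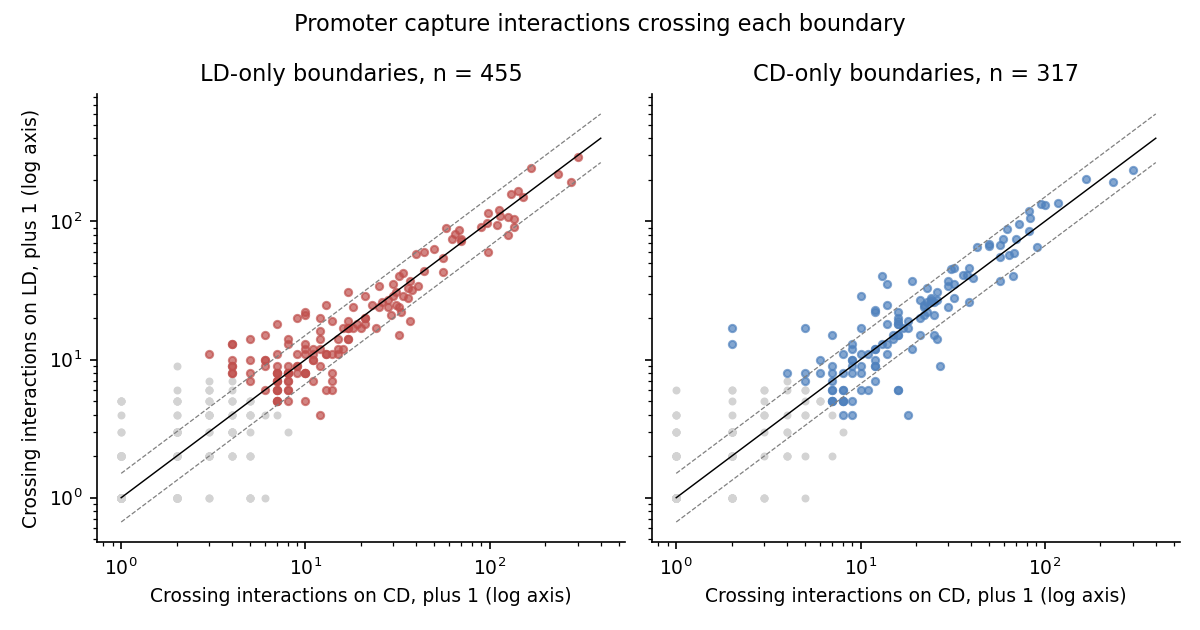
Promoter capture interactions crossing each LD-only (left) and CD-only (right) boundary, on CD (horizontal axis) and LD (vertical axis), plus 1, on log axes. Coloured points have at least 10 crossings over both lists (151 and 127 boundaries), grey ones fewer, the solid line marks equality and dashed lines a 1.5-fold difference.

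The boundaries with the most unequal crossings were found in both sets and in both directions. Among LD-only boundaries, that at 121660000 on chromosome 2, near Frmd5, was crossed by 10 interactions on LD and 2 on CD, and those at 145900000 on chromosome 1 and 117220000 on chromosome 4 by 12 and 3 each. The boundary on chromosome 1 lay 48.7 kb from Rgs2, which encodes a regulator of G-protein signalling and rose by 0.79 on the log2 scale. Casc4, near the boundary on chromosome 2, rose by 0.58. Fewer crossings on LD were found at 85380000 on chromosome 3 (3 on LD and 11 on CD), within the mitochondrial amidotransferase gene Gatb. They were also found at 113130000 on chromosome 2 (5 and 13) and at 51740000 on chromosome 13 (5 and 12). The last of these is the boundary near Cks2 with the CTCF core match shown above. Gatb, and Fmn1 near the boundary at 113130000, rose on LD as well, by 0.34 and 0.45.

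Among CD-only boundaries, that at 79330000 on chromosome 15, within the potassium channel gene Kcnj4, was crossed by 16 interactions on LD and 1 on CD. The boundary at 22460000 on chromosome 2, within Myo3a, was crossed by 12 and 1, and that at 85130000 on chromosome 12, within Papln, by 16 and 4. Crossings were more frequent on CD at 117830000 on chromosome 4, within the histone demethylase gene Kdm4a (3 on LD and 17 on CD), at 84280000 on chromosome 13 (8 and 26) and at 78290000 on chromosome 9, within Mb21d1, which encodes a cytosolic DNA sensor (5 and 15). In the last of these, the glutathione transferase gene Gsta2 rose on LD by 1.29 on the log2 scale and the translation elongation factor gene Eef1a1 fell by 0.31. Counts of this size carry wide counting error, and these boundaries were picked as the extremes of their sets.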

How the data were processed

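The members and gene lists were chosen with earlier results of these data known. Domains were called by the authors with HiCExplorer at 10 kb bins on 2 Hi-C libraries summed per diet, and the deposited score of each domain was used as given. It was assigned to the domain's start after the data were seen, in place of the planned lower score of adjoining domains. The deposited PCHi-C lists give a CHiCAGO score of at least 5 and spans of up to 1 Mb. Deposited H3K27ac peaks were called per liver with SICER. Factor peaks were deposited per liver as called with HOMER. RNA counts per gene were made by the authors with STAR 2.5 and featureCounts 1.5.0-p1, per the labels, and the deposited TPM values served as an alternative. Deposited fold changes and adjusted p-values of the authors' own comparison were not used. All coordinates are NCBIM37 (mm9): all 182293 captured fragment starts lay at a HindIII site of that genome.

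Gene counts were tested with edgeR 4.0.16 (TMM, filterByExpr, robust quasi-likelihood test, Benjamini-Hochberg adjustment) in R 4.3.3, with limma 3.58.1 and DESeq2 1.42.0 as alternatives. CPM are TMM-scaled. The test was checked on simulated data. H3K27ac coverage is the share of the 100 kb on either side of a boundary. Boundaries with at least 10 crossings were compared at 1.5-fold, and the ratio of each was formed with 0.5 added. Intervals are 95% Wilson intervals, for crossing ratios of the LD share of both counts. They cover counting error only and treat each boundary or interaction as independent. Labels name separate replicates, and p-values measure the spread between these livers. For each diet the 12 called genes of largest change with livers apart and at least 1 CPM on a diet were named. So were the 8 called genes nearest to a boundary, and genes of the list with CTCF, cohesin and condensin. Boundaries were named per diet as the 5 farthest from the other list, the 5 of lowest score, the 3 of highest and the 3 of lowest crossing ratio and the 3 with the most called genes. Other named items were chosen after their values were seen. Marker lists covered hepatocytes, macrophages, lymphocytes, endothelial cells, stellate cells and cholangiocytes. Results of 2 genes are not reported here.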

Additional observations from a re-analysis of the deposited data

Results flagged for a closer look

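Among the 37 genes named by rule near diet-only boundaries, each with 5 livers per diet, 3 of 74 groups held 1 liver far from the rest, where chance gives about 1 in 20 groups. Serpina4-ps1 reached 124 CPM in CD replicate 4, with the next CD liver at 34.3 and the lowest at 27. In the same liver, Serpina3c reached 2.92 CPM, with the next at 1.08 and the lowest at 0.495. Gal3st1 reached 2.35 CPM in CD replicate 3, with the next at 1.44 and the lowest at 1.1.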

How the results depend on the processing

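The number of LD-only boundaries was 559 at over 30 kb and 391 at over 100 kb, and that of CD-only boundaries 424 and 254. The median score came to -0.360 (LD-only) and -0.338 (CD-only) with the score of the domain that ends at the boundary, and to -0.430 and -0.414 with the lower of the scores of both domains. By the former reading diet-only boundaries score lower than identical ones, and by the latter about the same, so that the finding of weaker boundaries rests on the score belonging to a domain's start. That choice replaced the lower of both scores after the data were seen. The log2 ratio of H3K27ac at LD-only boundaries was -0.0418 within 50 kb, -0.00839 by number of peaks, 0.0978 without relation to identical boundaries and 0.00626 with boundaries over 100 kb from the other list. At CD-only boundaries it was 0.0610 within 20 kb, 0.0225 within 50 kb, 0.106 without that relation and -0.00157 with boundaries over 100 kb from the other list, and the cause of these shifts was not tested. The log2 ratio of crossing interactions was -0.0558 at LD-only boundaries with a score of at least 10, and 0.189 at CD-only boundaries with spans of at most 500 kb.

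Counts of called genes stayed within 1.5 times, from 142 to 182 near LD-only and from 105 to 148 near CD-only boundaries. Replicate numbers did not pair the livers: correlations of their deviations were -0.078 to 0.191, and 1 of 5 LD livers correlated best with its own number. With the replicate block, 146 genes were called near LD-only and 115 near CD-only boundaries, and the H3K27ac ratios were -0.0202 and -0.0118. Of 37 named genes, 26 kept their call under all alternatives run and none reversed. The calls of the other 11 were lost in 1 to 8 settings each, as given beside each gene. The log2(TPM + 1) scale, which understates change at low levels, gave smaller changes for several genes. Examples near LD-only boundaries were 0.64 for Egr2, 0.35 for Rad54b, 0.749 for Knstrn, -0.452 for Atp4a and -0.345 for Tcf7l2. Examples near CD-only boundaries were -1.87 for Cyp2c69, -2.37 for Cyp2c40 and -0.93 for Serpina9. Pooled Hi-C and PCHi-C lists give no spread between livers.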
